A study of Danio rerio with 24 samples.

Results

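The genes described here encode the proteasome of the zebrafish. Every gene whose name starts with *psm*, a letter from *a* to *g* and a digit was taken as a member, which gave 52 of the 26878 genes in the deposited tables, chosen by name and not by their values. They comprised 8 alpha ring and 7 beta ring genes of the 20S core, 7 ATPase and 15 non-ATPase genes of the 19S regulator, 6 immunoproteasome genes, and 8 genes of activators, an inhibitor or assembly chaperones. The last member, *psmc3ip*, shares the name but encodes a meiotic recombination factor and not a subunit. It was kept in all counts, sums and medians of the members, which are also called proteasome genes below. The name rule placed *psmd5*, *psmd9* and *psmd10*, which are known as chaperones of 19S assembly in yeast and mammals, among the 19S genes.

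The proteasome is the protease that degrades ubiquitin-tagged proteins in the cytosol and nucleus. Its 20S core is a barrel of stacked rings with outer alpha and inner beta subunits, of which Psmb5, Psmb6 and Psmb7 carry the catalytic sites, and its 19S regulator recognises the ubiquitin chain and unfolds the substrate with a ring of ATPases. In mammals, leukocytes and cells that receive interferon replace the catalytic subunits with Psmb8, Psmb9 and Psmb10 to form the immunoproteasome, which supplies peptides for antigen presentation. The PA28 activator (Psme1 and Psme2), the related Psme3 and the PA200 activator (Psme4) bind the core in place of the 19S regulator, and the Psmg proteins are chaperones of core assembly.

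RNA was sequenced from whole zebrafish larvae in 24 libraries, with 4 biological replicates of pooled larvae in each of 6 groups. Wild-type (WT) larvae were compared with *elavl3:Gal4* larvae, labelled huC:gal4:gcry:RFP, which carried the Gal4 driver of the neuronal *elavl3* (*huC*) promoter, and with *elavl3:Gal4; UAS:fynY531F* larvae. The last, called FynY531F larvae below, carried the same driver together with UAS:fynY531F:gcry:GFP, a constitutively active form of the tyrosine kinase Fyn. Each genotype was collected at 3 and 5 days post fertilization (dpf). All groups were raised in E3 medium. Expression of the transgene was limited to cells in which the *elavl3* promoter is active, while RNA came from the whole larva, so fewer cells of a type and less RNA per cell cannot be told apart in any value below. Pools of larvae were the replicates, and the fitted comparisons share control groups.

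Total counts per library were between 11386498 and 30549128. Of the 52 members, 47 passed the filter on low counts in every fit, and the other 5 were all immunoproteasome genes. Levels are given as CPM, counts per 1000000 counts of a library after TMM scaling over the 24 libraries. A gene was called where the Benjamini-Hochberg adjusted p of the edgeR quasi-likelihood test was under 0.05 over all genes tested, and fold changes are log2 values ± SE. The targeted gene bore out the labels: *fyna*, from which the transgene was made, was at 825 to 974 CPM in 3 dpf FynY531F larvae and at 69.1 to 91.5 CPM in both other genotypes. At 5 dpf it was at 141 to 269 CPM in FynY531F larvae and at 76.4 to 92.7 CPM in the others, a smaller but still separate range. Markers of neurons, muscle, liver, erythrocytes and leukocytes were all found in the libraries of whole larvae.

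One library stood apart. Replicate 3 of 5 dpf *elavl3:Gal4* larvae correlated with its own group at r = 0.826 to 0.844 across 17245 genes, while all other pairs of libraries within a group were between 0.979 and 0.992. The neuronal gene *elavl3* was at 75 CPM in it and at 411 to 519 CPM in the other 3 replicates. Neuronal markers did not all go this way. The 4 listed, with *elavl3* among them, summed to 1503 CPM in it and to 1210 to 1459 CPM in the other 3. The TMM factor of this library was 0.622 against 0.935 to 1.08 elsewhere. Proteasome genes were high in it. Scaled by library totals, the 47 members tested lay at a median log2 difference of 0.52 above the mean of the other 3 replicates, where the median of all genes was -0.63. For the 15 genes of the 20S core the median was 0.87, and for those of the 19S regulator it was 0.43. The difference went with gene length in part. The PA200 genes *psme4a* (7207 bp) and *psme4b* were low at -1.3 and -1.07, as was the short *psmc6* (1561 bp) at -1.28, and the 2 core genes *psmb2* and *psma2* were high at 1.14 and 1.11. The Spearman correlation between this difference and gene length was -0.468 across the 47 members and -0.336 across 19534 genes, while it was between -0.17 and 0.217 for the other 3 replicates. These points share 1 library, and the correlation is a description without a test. Each comparison with 5 dpf *elavl3:Gal4* larvae is given with and without this library below.

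**Figure D1:**
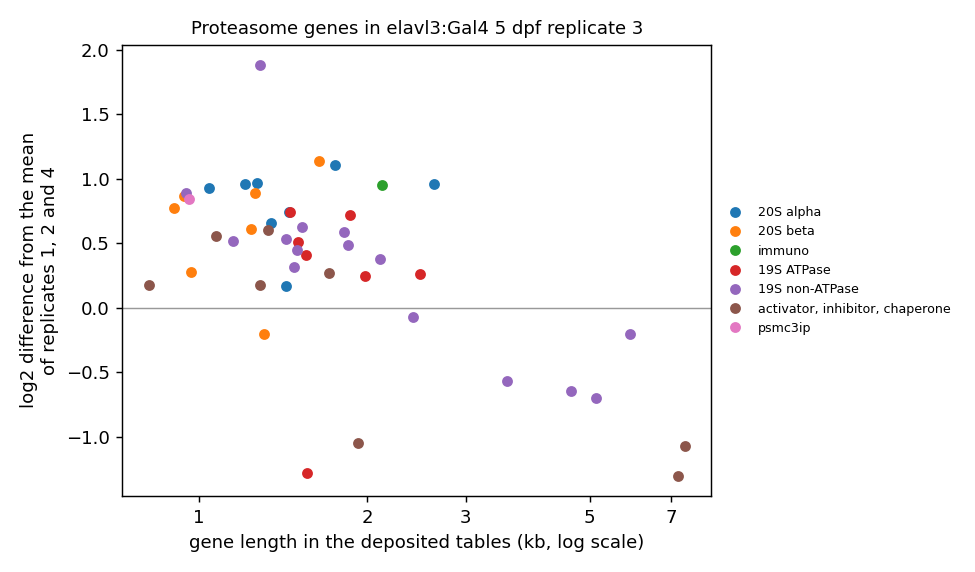
Each point is 1 of the 47 proteasome genes tested, placed by gene length in kb (log axis) and by the log2 difference between replicate 3 of 5 dpf *elavl3:Gal4* larvae and the mean of replicates 1, 2 and 4, scaled by library totals and coloured by class. The 20S core genes are short and lie mostly above 0 (median 0.87), and the long *psme4a* lies lowest at -1.3.

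Per kilobase of gene length, the beta ring genes were the most abundant class. In 3 dpf WT larvae their median was 121 CPM per kb, followed by 69.4 for the ATPases, 63.6 for the alpha ring, 52.9 for the non-ATPase genes and 11.6 for activators, inhibitor and chaperones. The immunoproteasome genes stood far lower, at a median of 0.0671 CPM per kb. The highest single genes were *psmb4* at 156, *psmb1* at 152 and *psma8* at 139 CPM per kb. The lowest of the members tested were *psme2* at 2.33, *psmb10* at 1.67 and *psma6l*, named as a relative of the alpha ring gene *psma6*, at 1.01 CPM per kb. Most members varied little between pools of one group. Over 23 libraries, without the one that stood apart, the within-group SD of log2 CPM had a median of 0.089 over the 47 members and 0.157 over 17245 genes. The latter had at least 10 counts in each library and were not matched to the members for level. Low counts alone add to this SD. A few members behaved otherwise and were singled out after their values were seen: the activator gene *psme3* (0.85), the ATPase gene *psmc6* (0.79), the chaperone gene *psmd10* (0.71) and the catalytic gene *psmb5* (0.44) lay at percentiles 99.9, 99.8, 99.7 and 97.8 of all genes. In some groups their levels differed several-fold between pools of the same genotype and age, but not in every group. *psmb5*, for example, was at 12 to 39.2 CPM in 5 dpf WT pools and at 38.3 to 39.5 CPM in 3 dpf WT pools.

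Proteasome genes took a smaller share of the larval transcriptome at 5 dpf than at 3 dpf. In WT larvae the 52 genes summed to 4281, 4199, 4286 and 4197 CPM of the library total (without TMM scaling) at 3 dpf and to 2511, 2390, 2432 and 2263 at 5 dpf. No 5 dpf library came near the 3 dpf ones. In FynY531F larvae the sums were 4669, 4352, 4701 and 4512 at 3 dpf and 2880, 2625, 3110 and 3113 at 5 dpf. These were above the WT libraries of the same age at both ages, without overlap. In *elavl3:Gal4* larvae they were 4175, 3981, 4283 and 4057 at 3 dpf and 2760, 2409, 3541 and 2409 at 5 dpf, where the third value is the library that stood apart. Without it the 5 dpf *elavl3:Gal4* range overlapped that of FynY531F larvae by library totals. After TMM scaling these ranges were 2383 to 2743 and 2808 to 3053 CPM, without overlap. The 20S core and the 19S regulator went the same way: in WT larvae the core fell from between 1638 and 1761 to between 917 and 1000 CPM of the library total, and the regulator from between 2284 and 2325 to between 1153 and 1333.

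**Figure D2:**
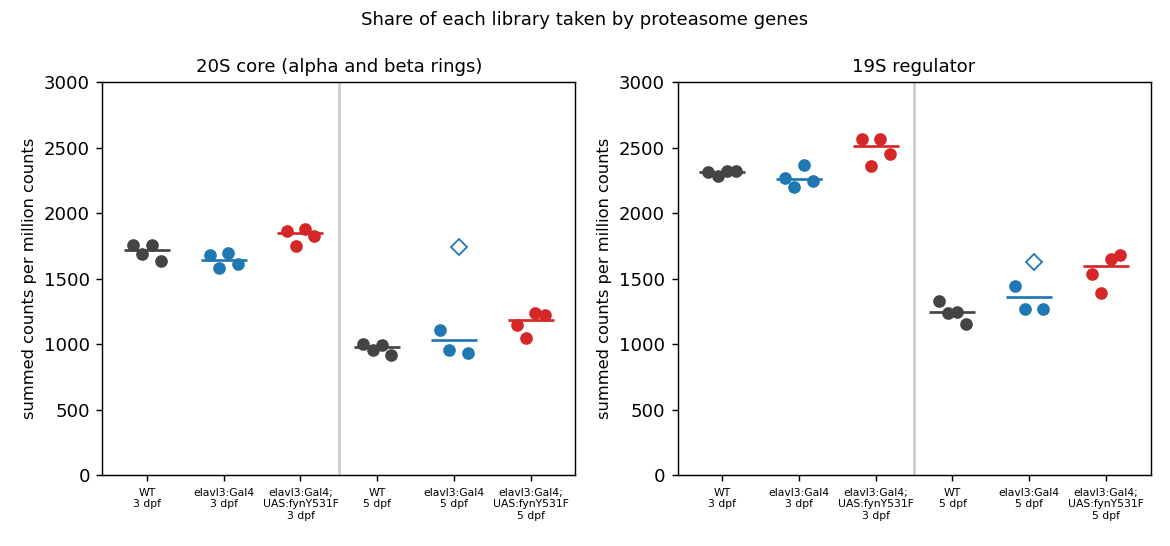
Summed counts of the 20S core genes and of the 19S regulator genes as CPM of the library total in each of the 24 libraries, by group, with a bar at the group median and an open diamond for replicate 3 of 5 dpf *elavl3:Gal4* larvae. Every 5 dpf library lies below the 3 dpf libraries except that diamond in the 20S core (1740), and *elavl3:Gal4; UAS:fynY531F* libraries lie above WT at 5 dpf (1051 to 1236 against 917 to 1000 for the core).

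In WT larvae, 39 of the 47 members tested fell between 3 and 5 dpf, where 28.7% of all 19589 genes tested were called lower, and 4 rose, where 29.3% of all genes were called higher. The median change was -0.61 over the members and 0.00 over all genes. All 7 beta ring genes fell, as did 7 of 8 alpha ring genes, 7 of 7 ATPases and 14 of 15 non-ATPase genes, by between 0.20 and 1.27 on the log2 scale among the members called. The 4 that rose were *psma6l*, *psmb10*, *psme2* and *psmg3*. The members not called were *psmd10*, *psme3*, *psme4a* and *psmg2*.

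The largest falls without overlap between the ages were in 19S genes. *psmc3*, an ATPase of the regulator ring (chromosome 7, 38680034 to 38685337, GRCz11), was at 189, 199, 199 and 197 CPM in 3 dpf WT larvae and at 95.9, 87.8, 85.4 and 79.5 CPM at 5 dpf. Each library at 5 dpf was below every one at 3 dpf, and the log2 change was -1.16 ± 0.06 (adjusted p = 2.9e-09). *psmd8*, a non-ATPase subunit (chromosome 18, 44615591 to 44623675), went from 139, 130, 127 and 134 CPM to 63.2, 60.7, 58.1 and 53.8 CPM, a log2 change of -1.16 ± 0.06 (adjusted p = 3.0e-09). *psmd12*, another non-ATPase subunit, went from 150, 162, 153 and 156 CPM to 74, 71.5, 70.2 and 71.8 CPM, with a log2 change of -1.10 ± 0.05 (adjusted p = 7.8e-10).

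The catalytic genes *psmb6* and *psmb7* fell in WT larvae as the rest of the core did. *psmb6* was at 100 to 114 CPM at 3 dpf and at 62.7 to 72.3 CPM at 5 dpf, with a log2 change of -0.61 ± 0.06 (adjusted p = 1.9e-06). *psmb7* (chromosome 21, 8341774 to 8352095) was at 152 to 155 CPM and then at 83.4 to 88 CPM, with a log2 change of -0.84 ± 0.05 (adjusted p = 6.3e-09). The third, *psmb5*, varied more and is given below.

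A few members rose with age instead. *psma6l* (chromosome 15, 47920629 to 47929455) was at 1.3, 1.43, 1.88 and 1.18 CPM in 3 dpf WT larvae and at 5.01, 4.44, 3.76 and 3.81 CPM at 5 dpf, a log2 change of 1.56 ± 0.20 (adjusted p = 2.2e-05). The genes *psma6a* and *psma6b* fell by 0.82 and 0.58 on the log2 scale in the same larvae, so the genes of this name moved in opposite directions. The PA28 gene *psme2* was at 4.11, 4.86, 3.69 and 3.25 CPM and then at 6.68, 7.95, 4.78 and 8.30 CPM, a log2 change of 0.81 ± 0.19 (adjusted p = 0.00262). The core chaperone gene *psmg3* was at 12.9 to 16.1 CPM and then at 17.1 to 20.6 CPM, a log2 change of 0.41 ± 0.10 (adjusted p = 0.00252). The 5 dpf libraries of *psmg3* were all above those of 3 dpf, while 1 library of *psme2* at 5 dpf was just below the highest at 3 dpf.

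In FynY531F larvae, 32 members fell with age, where 25.3% of all genes were called lower, and 5 rose, where 27.0% were called higher. The median change was -0.54 over the members and 0.00 over all genes. *psmd12* went from 169, 149, 166 and 154 CPM to 80.1, 71.3, 78.2 and 81.7 CPM (log2 change -1.03 ± 0.07, adjusted p = 2.0e-06). *psmc3* went from 209, 205, 219 and 202 CPM to 110, 105, 116 and 121 CPM (-0.88 ± 0.06, adjusted p = 3.4e-06), and *psmd8* from 149 to 160 CPM to 77.9 to 92.4 CPM (-0.87 ± 0.07, adjusted p = 4.4e-06). The members that rose were *psma6l*, *psmb10*, *psmb5*, *psmc6* and *psme2*. *psma6l* was at 2.04, 1.80, 2.04 and 2.74 CPM at 3 dpf against 6.12, 8.22, 6.19 and 5.49 CPM at 5 dpf (1.60 ± 0.19, adjusted p = 7.0e-05), and *psme2* at 4.15, 6.11, 5.60 and 4.11 CPM and then at 10.2, 12.4, 8.18 and 9.24 CPM (1.01 ± 0.18, adjusted p = 8.1e-04).

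In *elavl3:Gal4* larvae the fit of all 8 libraries called 6 members lower, where 10.4% of all genes were called lower, and 1 higher, where 15.4% were called higher, with a median change of -0.18. Those that fell were non-ATPase genes, among them *psmd7* at 62.9, 58.6, 66.0 and 59.8 CPM at 3 dpf against 31.8, 27.6, 29.9 and 28.8 CPM later (log2 change -1.04 ± 0.10, adjusted p = 2.7e-04), and *psmd12* (-0.85 ± 0.16, adjusted p = 0.00572). *psma6l* was the member that rose, from 0.906, 1.63, 2.12 and 1.53 CPM to 4.70, 3.42, 7.93 and 5.08 CPM (1.77 ± 0.35, adjusted p = 0.00659). Without the library that stood apart, 37 members were called lower and 4 higher, where 29.3% and 29.6% of all genes were, and the median change was -0.61. The largest fall there was in the variable gene *psmd10* (-2.91 ± 0.64, adjusted p = 0.00215). The call of *psmd8* (-0.78 ± 0.24, adjusted p = 0.0457 with all libraries) was lost when any 1 of the other 7 libraries was left out, and with replicate 3 of 5 dpf larvae left out the change was -1.11 ± 0.07 (adjusted p = 2.5e-07). Across the WT, FynY531F and reduced *elavl3:Gal4* comparisons, 32 members were called lower in all 3 and 2, *psma6l* and *psme2*, were called higher in all 3. Only *psmb5* and *psmc6* were called in opposite directions in WT and FynY531F larvae.

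Markers of several cell types moved with age as well. The 5 dividing-cell genes *pcna*, *mcm2*, *mcm5*, *mki67* and *top2a* summed to 1041 to 1173 CPM in WT larvae at 3 dpf and to 662 to 812 CPM at 5 dpf. In FynY531F larvae they summed to 1131 to 1229 CPM and then to 827 to 963 CPM, and in *elavl3:Gal4* larvae to 1204 to 1377 CPM and then to 712 to 802 CPM without the library that stood apart. None of the 5 was at 0 counts in any group. In WT larvae the erythrocyte markers went from 859 to 1210 CPM at 3 dpf to 249 to 359 CPM later, with a log2 change of -1.69 for the 1 gene tested, and the other of the 2 had 0 counts in 5 dpf WT larvae. The liver markers went from 2538 to 2766 CPM to 1418 to 1916 CPM in WT (median of 3 genes -0.80), with 2 called lower and 1 higher. In FynY531F larvae 1 of these 3 was called higher and 0 lower. The lymphoid markers rose in WT larvae, from 4.21 to 6.44 CPM to 23.5 to 29.5 CPM (median of 3 genes 1.66). Other lists were mixed in WT: 3 leukocyte markers were called higher and 3 lower, 3 neuronal markers higher and 1 lower, and 1 muscle marker each way. Of all genes 29.3% were called higher and 28.7% lower in WT. The part of these cells in the fall of the proteasome genes was not tested. With library totals alone the median of all genes was -0.15 in WT, -0.19 in *elavl3:Gal4* and -0.10 in FynY531F larvae. The members' medians were -0.76, -0.54 and -0.65, so the members lay below the rest under either scaling.

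**Figure D3:**
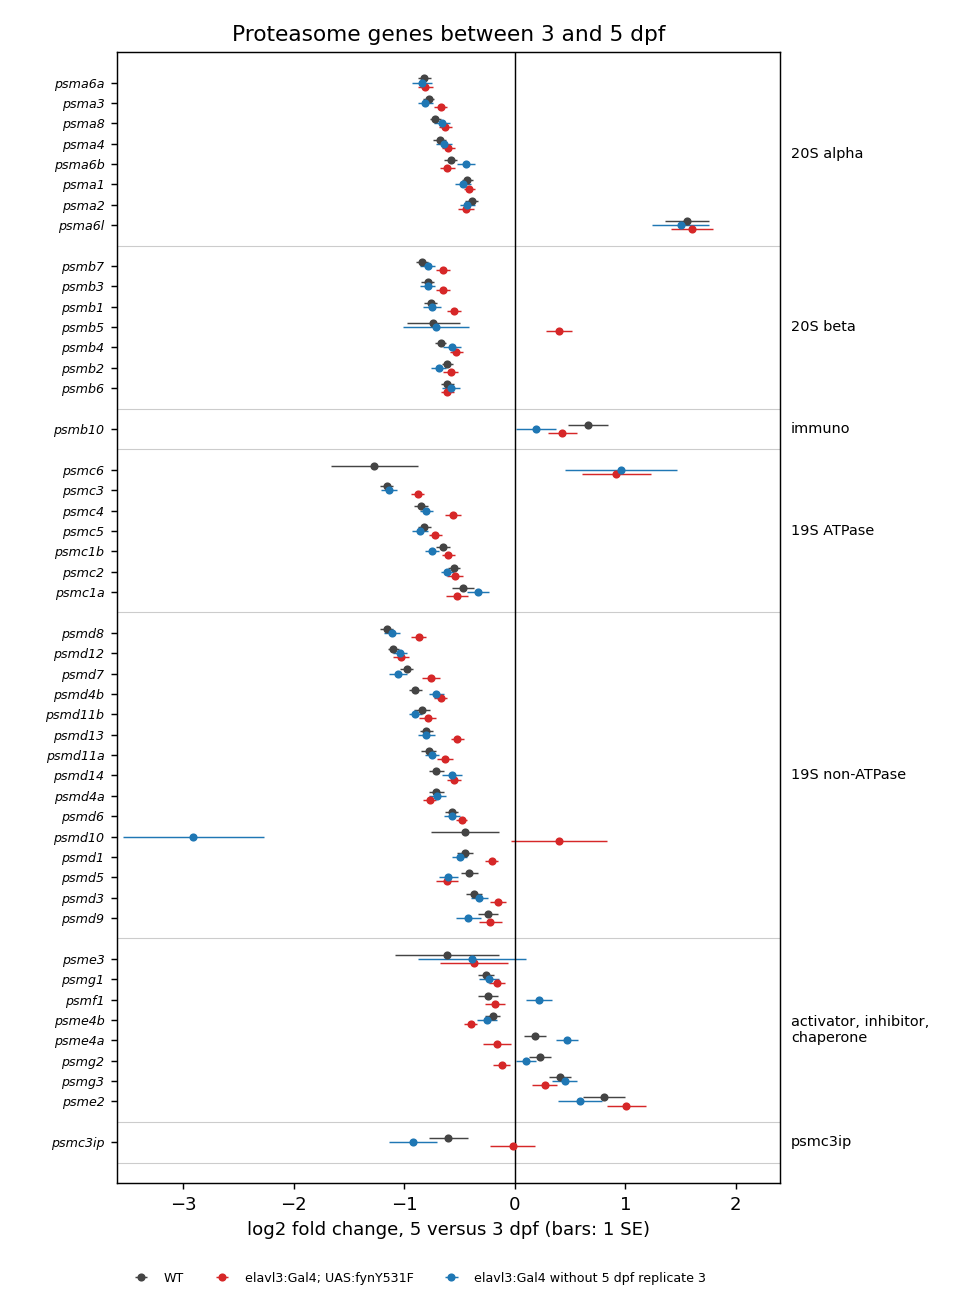
Log2 fold change from 3 to 5 dpf (± 1 SE) of the 47 proteasome genes tested, in WT larvae, in *elavl3:Gal4; UAS:fynY531F* larvae and in *elavl3:Gal4* larvae without replicate 3 of 5 dpf. Most genes lie below 0 in all 3 genotypes (medians -0.61, -0.54 and -0.61), *psma6l* lies above 0 in each, and *psmb5* and *psmc6* lie on opposite sides of 0 in WT and *elavl3:Gal4; UAS:fynY531F* larvae.

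At 3 dpf the neuronal FynY531F larvae had slightly more proteasome RNA than either control. Against *elavl3:Gal4* larvae, 10 members were called higher, where 8.88% of all genes were, and 1 was called lower, where 9.73% were. The one lower was *psmc3ip*, which is not a subunit. The median difference was 0.12 over the members and 0.00 over all genes. The members called higher were *psma4*, *psmb3*, *psmb4*, *psmb10*, *psmc1b*, *psmd4b*, *psmd8*, *psmf1*, *psmg1* and *psmg2*. Against WT larvae, 15 members were called higher, where 12.7% of all genes were, and 1 lower, where 14.8% were, with a median of 0.14 over the members and -0.01 over all genes. Against WT, 10 of the members called higher belonged to the 19S regulator, and 3 to the core. Between the 2 controls, edgeR called 0 members (4.79% of all genes), as did DESeq2, and 3 members had an unadjusted p under 0.05; the median difference was 0.00.

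*psmb10* was higher than in both controls at 3 dpf. This gene, which encodes the immunoproteasome subunit that replaces Psmb7 (chromosome 4, 77207693 to 77218637), was at 6.57, 5.72, 6.31 and 6.72 CPM in FynY531F larvae. It was at 3.21, 4.08, 3.65 and 3.28 CPM in *elavl3:Gal4* and at 4.11, 2.86, 4.49 and 2.74 CPM in WT larvae. All 4 FynY531F libraries were thus above all 8 control libraries, with a log2 difference of 0.84 ± 0.14 from *elavl3:Gal4* (adjusted p = 0.00148) and 0.84 ± 0.18 from WT larvae (adjusted p = 0.00398).

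The chaperone gene *psmg1* was at 28.7 to 33.1 CPM in FynY531F and at 24.6 to 27.8 CPM in *elavl3:Gal4* larvae (log2 difference 0.31 ± 0.07, adjusted p = 0.00999). *psmd8* was at 149 to 160 CPM against 127 to 139 CPM in WT larvae (0.23 ± 0.05, adjusted p = 0.00582). Neither range overlapped that of the control. The proteasome inhibitor gene *psmf1* (0.30 ± 0.09, adjusted p = 0.0383) and *psmc3ip* (-0.64 ± 0.19, adjusted p = 0.0366) against *elavl3:Gal4*, and the 19S chaperone gene *psmd9* against WT (0.26 ± 0.09, adjusted p = 0.042), each lost the call in 6 of the 8 fits that left out 1 library. The counts rest on small differences. They were between 6 and 9 members against *elavl3:Gal4*, and between 6 and 14 against WT, when 1 library was left out. Against WT, 6 members were called without replicate 2 of WT or replicate 3 of FynY531F larvae, 8 without replicate 1 of the latter and 10 without replicate 1 of WT. Against *elavl3:Gal4*, 6 were called without replicate 1, 2 or 4 of *elavl3:Gal4*, or without replicate 1, 3 or 4 of FynY531F larvae. With all 24 libraries in one fit, no member was called in either comparison, and with the library that stood apart left out of that fit the counts were 13 and 18. Shares over all genes are not given for these alternative fits, so their counts cannot be set against such shares.

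At 5 dpf the difference from WT larvae was wider. Compared with WT, 26 members were called higher, where 14.5% of all genes were, and 1 lower, where 14.3% were, with a median difference of 0.25 over the members and 0.00 over all genes. Those called higher included 6 of 7 beta ring genes, 4 of 8 alpha ring genes, 5 of 7 ATPases and 9 of 15 non-ATPase genes. *psmd8* was at 77.9, 82.0, 92.4 and 83.6 CPM in FynY531F larvae and at 63.2, 60.7, 58.1 and 53.8 CPM in WT larvae, a log2 difference of 0.52 ± 0.08 (adjusted p = 7.1e-04). *psmc3* was at 105 to 121 CPM against 79.5 to 95.9 CPM (0.38 ± 0.07, adjusted p = 0.00393). *psmb7* was at 96.2 to 109 CPM against 83.4 to 88 CPM (0.28 ± 0.06, adjusted p = 0.0061). In each of these genes the ranges did not overlap. *psmb6* was at 70.7 to 75.6 CPM against 62.7 to 72.3 CPM, which overlapped (0.09 ± 0.07, adjusted p = 0.348). *psmd12*, among the genes that fell most with age, was also not called (0.12 ± 0.06, adjusted p = 0.186). With all 24 libraries in one fit 6 members were called in this comparison, and with the library that stood apart left out of that fit 30 were.

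The rare members *psma6l*, which was not called by genotype at 3 dpf, and *psmb10* were among those called higher than in WT at 5 dpf. *psma6l* was at 6.12, 8.22, 6.19 and 5.49 CPM against 5.01, 4.44, 3.76 and 3.81 CPM in WT (log2 difference 0.62 ± 0.17, adjusted p = 0.0186), and the call was lost without replicate 3 or replicate 4 of WT, where the difference was 0.56 and 0.57. *psmb10* was at 9.27, 7.36, 9.55 and 8.06 CPM against 4.77, 5.90, 5.60 and 6.06 CPM (0.61 ± 0.14, adjusted p = 0.00734). The member called lower was *psme4a*, one of the PA200 genes, at 20.1, 19.7, 16.2 and 13.5 CPM against 20.8, 25.5, 22.5 and 29.2 CPM in WT larvae (-0.49 ± 0.14, adjusted p = 0.0248). Its ranges lay next to each other, and the call was lost in 4 of the 8 fits without 1 library, those without replicate 2 or 4 of WT or replicate 3 or 4 of FynY531F larvae, at -0.39 to -0.47.

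Against *elavl3:Gal4* larvae at 5 dpf the result turned on 1 library. With all 8 libraries edgeR called 0 members, where 4.60% of all genes were called, with a median difference of -0.23. DESeq2 called 4, for which the share over all genes is not given, and 5 had an unadjusted p under 0.05. With library totals alone the median was 0.06, and the median of all genes was 0.14 under that scaling. Without the library that stood apart, 17 members were called higher, where 11.7% of all genes were, and 1 lower, where 11.0% were, with a median of 0.21. The largest difference was in *psmd10* (2.03 ± 0.38, adjusted p = 0.00512), which was among the members that varied most between pools. Those higher also included *psmb5* (1.18 ± 0.25, adjusted p = 0.00992), *psmb10* (1.07 ± 0.17, adjusted p = 0.00214), *psme2* (0.89 ± 0.16, adjusted p = 0.0048) and *psmd8* (0.46 ± 0.09, adjusted p = 0.00709). The one lower was *psme4a* (-0.79 ± 0.14, adjusted p = 0.00419). Between the 2 controls at 5 dpf edgeR called 0 members (0.0508% of all genes), DESeq2 also 0, and 1 member had an unadjusted p under 0.05. The median difference was 0.41 with all libraries, and without the one that stood apart it was 0.03, with 0 members called (1.95% of all genes) and 5 at an unadjusted p under 0.05.

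**Figure D4:**
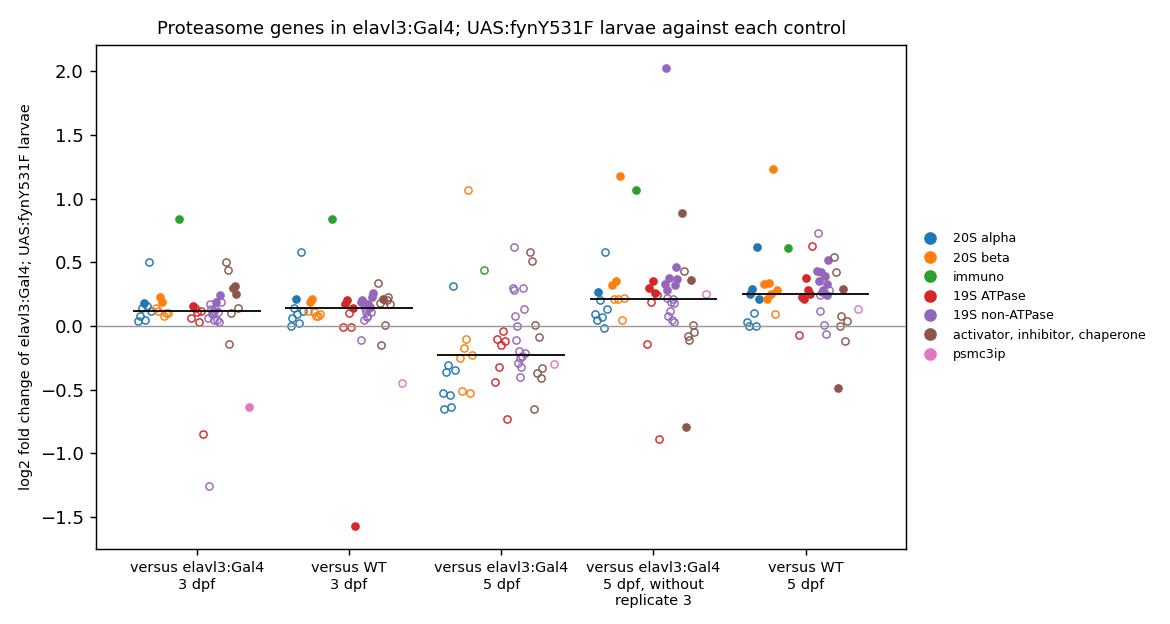
Log2 difference of *elavl3:Gal4; UAS:fynY531F* larvae from *elavl3:Gal4* or WT larvae at 3 and 5 dpf for the 47 proteasome genes tested, with filled points for called genes and a line at the median of each column. The medians are 0.12 and 0.14 at 3 dpf and 0.25 against WT at 5 dpf, and against *elavl3:Gal4* at 5 dpf the median is -0.23 with all libraries and 0.21 without replicate 3 of that group.

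Whether the change with age differed between genotypes was tested as an interaction. Between FynY531F and WT larvae 5 of 47 members were called, all with a higher change in the FynY531F larvae, where 6.23% of all genes were called in that direction. In either direction 2380 of 20340 genes were called, 1113 of them with a lower change, a share close to that of the members. The members called were *psmc6* (2.19 ± 0.59, adjusted p = 0.0217), *psmb5* (1.13 ± 0.31, adjusted p = 0.0253), *psmc4* (0.28 ± 0.09, adjusted p = 0.0447), *psmd13* (0.27 ± 0.08, adjusted p = 0.0447) and *psmd8* (0.27 ± 0.09, adjusted p = 0.0479). For *psmc4*, *psmd13* and *psmd8* the fall with age was smaller in FynY531F larvae. The ATPase gene *psmc4*, for example, went from 130 to 150 CPM to 71.3 to 79 CPM in WT larvae and from 126 to 139 CPM to 86.7 to 98.7 CPM in FynY531F larvae. With all 24 libraries in one fit no member was called, and without the library that stood apart in that fit 4 were. Leaving out 1 library gave between 2 and 7, and the share over all genes is not given for any of these alternative fits. Counts of 2 came without replicate 3 or 4 of 3 dpf or replicate 4 of 5 dpf FynY531F larvae and without replicate 2 or 4 of 5 dpf WT, and counts of 3 without replicate 1, 3 or 4 of 3 dpf WT, replicate 3 of 5 dpf WT, or replicate 1 or 3 of 5 dpf FynY531F larvae. Against *elavl3:Gal4* larvae edgeR and DESeq2 called 0 members for the interaction (4.15% of all genes), with 4 at an unadjusted p under 0.05. Without the library that stood apart edgeR called 6, where 15.9% of all genes were called, 5 with a higher change in the FynY531F larvae and *psme4a* with a lower one (-0.62 ± 0.17, adjusted p = 0.023). The largest of the 5 was in the variable gene *psmd10* (3.31 ± 0.86, adjusted p = 0.0154).

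*psmb5* and *psmc6*, which carried the largest interaction values against WT, were also among the members that varied most between pools. *psmb5*, the gene of the chymotrypsin-like catalytic subunit (chromosome 2, 38373272 to 38392575), was at 38.3, 39.5, 38.9 and 38.5 CPM in WT larvae at 3 dpf but 19.3, 12, 39.2 and 21.8 CPM at 5 dpf. One of the 5 dpf pools was at the 3 dpf level, and the change was -0.74 ± 0.24 (adjusted p = 0.017). In FynY531F larvae it was at 36.3, 47.6, 38.1 and 41.1 CPM at 3 dpf against 64.8, 50.6, 54.8 and 45.1 CPM at 5 dpf. There it rose, with overlapping ranges (0.40 ± 0.12, adjusted p = 0.015). In *elavl3:Gal4* larvae it was at 62.5, 34.8, 34.8 and 25.7 CPM and then at 34.2, 23.4, 30.6 and 13.4 CPM (-0.61 ± 0.35, adjusted p = 0.237). At 5 dpf all 4 FynY531F libraries were above all 8 control libraries. The log2 difference was 1.23 ± 0.28 from WT (adjusted p = 0.00855) and 1.07 ± 0.28 from *elavl3:Gal4* larvae (adjusted p = 0.0639 with all libraries). The interaction against WT was not called without replicate 1 of 5 dpf WT larvae (1.06).

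*psmc6*, an ATPase gene (chromosome 20, 9763364 to 9776334), was at 23.1, 9.15, 34.6 and 21.4 CPM in WT larvae at 3 dpf but 16.4, 10.5, 4.51 and 5.16 CPM at 5 dpf, with overlapping ranges (-1.27 ± 0.39, adjusted p = 0.0124). In FynY531F larvae it was at 5.13, 7.36, 4.74 and 12.5 CPM and then at 20, 13.6, 13.6 and 9.03 CPM, which also overlapped (0.92 ± 0.31, adjusted p = 0.0293). In *elavl3:Gal4* larvae it was at 5.03, 10.2, 32.9 and 6.95 CPM and then at 42.3, 19.6, 15.1 and 15.8 CPM (0.78 ± 0.61, adjusted p = 0.394). The spread within *elavl3:Gal4* pools at 3 dpf covered most of that seen in WT. At 3 dpf *psmc6* was the member called lower against WT (-1.57 ± 0.36, adjusted p = 0.00638), and against *elavl3:Gal4* larvae it was not called (-0.85 ± 0.51, adjusted p = 0.276).

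**Figure D5:**
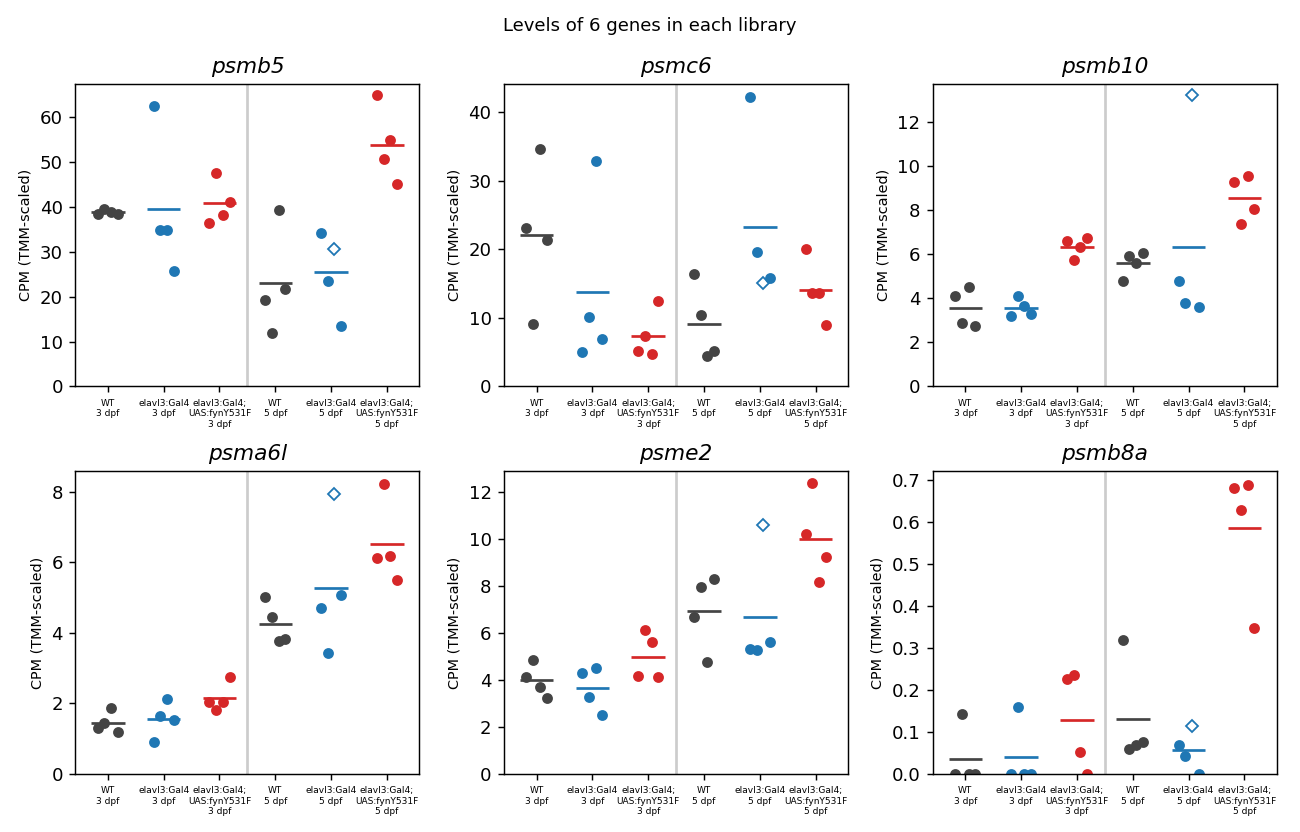
Level in CPM of *psmb5*, *psmc6*, *psmb10*, *psma6l*, *psme2* and *psmb8a* in each library of the 6 groups, with a bar at the group mean and an open diamond for replicate 3 of 5 dpf *elavl3:Gal4* larvae. *psmb5* at 5 dpf is above both controls in all 4 *elavl3:Gal4; UAS:fynY531F* libraries (45.1 to 64.8 CPM against 12 to 39.2 CPM), and *psmc6* spreads from 4.51 to 42.3 CPM with overlap between groups.

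The immunoproteasome genes were near the limit of detection except for *psmb10*. In WT larvae *psmb10* rose with age from 2.74 to 4.49 CPM to 4.77 to 6.06 CPM (log2 change 0.66 ± 0.18, adjusted p = 0.00697), and in FynY531F larvae from 5.72 to 6.72 CPM to 7.36 to 9.55 CPM (0.43 ± 0.13, adjusted p = 0.0146). In *elavl3:Gal4* larvae it was at 3.21 to 4.08 CPM at 3 dpf. At 5 dpf it was at 4.77, 3.80, 13.2 and 3.59 CPM there, the third being the library that stood apart. This change with age was not called with all libraries (0.83) or without that library (0.19). The 4 FynY531F libraries at 5 dpf did not overlap the other 3 *elavl3:Gal4* libraries, and lay below the one that stood apart. With all libraries the difference of *psmb10* from *elavl3:Gal4* larvae at 5 dpf was 0.44 and was not called. The interaction between age and genotype was not called for it against WT (-0.24 ± 0.22, adjusted p = 0.541).

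The other 5 immunoproteasome genes did not pass the filter. *psmb8a*, the gene of the subunit that replaces Psmb5, had 8, 11, 10 and 5 counts in the 4 libraries of 5 dpf FynY531F larvae, 34 in all. In each of the 20 other libraries it had between 0 and 5 counts, with group sums of 2, 5, 7, 7 and 3. *psmb12* had 14, 8, 7 and 7 counts in the same larvae, 36 in all, and group sums of 8 to 18 elsewhere. *psmb9a*, the gene of the subunit that replaces Psmb6, had 18 counts in these larvae and group sums of 7 to 23 elsewhere, 13 of the 23 in the library that stood apart. *psmb13a* had group sums of 1 to 10. *psmb11b*, related to the thymus-specific Psmb11 of mammals, had 0 counts in both WT and *elavl3:Gal4* larvae at 3 dpf and in FynY531F larvae at both ages, which allows up to 0.0439 to 0.0544 CPM over a group at a limit of 3 counts, for counting error only.

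In a fit without the filter, *psmb8a* was called in 5 dpf FynY531F larvae against WT (log2 difference 2.17 ± 0.58, adjusted p = 0.0177) and against *elavl3:Gal4* larvae (3.31 ± 0.62, adjusted p = 0.0211), and with age (2.22 ± 0.64, adjusted p = 0.0144). *psmb12* was called against WT at 5 dpf (2.13 ± 0.55, adjusted p = 0.0161) and not against *elavl3:Gal4* larvae (1.51 ± 0.50, adjusted p = 0.147). Fitted values of genes with so few counts depend on the prior count. *psmb8a* (7105838 to 7144548) and *psmb13a* (7111779 to 7144585) overlap on the minus strand of chromosome 19, and *psmb12* (7115223 to 7119456) and *psmb9a* (7120380 to 7122373) lie within them on the plus strand. No source used here states whether the counting was stranded, so reads of these 4 genes cannot be told apart with certainty. In all, 18 members overlap another annotated gene, 5 of them on the same strand.

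Genes of interferon response and antigen processing were taken from a list of 31 symbols, of which 25 were found, as 26 genes. Against *elavl3:Gal4* larvae at 3 dpf, 9 of the 23 tested were higher and 2 lower (8.88% and 9.73% of all genes), with a median difference of 0.43. Against WT, 10 of 23 were higher and 3 lower (12.7% and 14.8% of all genes), with a median of 0.31. The largest differences from *elavl3:Gal4* larvae were in *stat1b*, a transcription factor of interferon signalling (4.45), *isg15*, a ubiquitin-like protein (3.64), and *mxb*, an antiviral GTPase (3.21). *stat1b* was at 2.49, 4.78, 4.02 and 4.05 CPM in FynY531F larvae and at or below 0.444 CPM in all 8 control libraries. Between the 2 controls, 17 genes of the list passed the filter at 3 dpf. Genes such as *stat1b* and *mxb*, at low counts in both controls, were thus tested only through their level in FynY531F larvae. Their direction was set by the filter, and they enter these counts and medians. At 5 dpf, 11 of 24 were higher than in WT and 2 lower (14.5% and 14.3% of all genes), with a median of 0.58. Between the 2 controls 22 were tested at that age, so these counts can also include genes whose direction was set by the filter. Among those higher was *b2m*, the light chain of MHC class I, at 11.3, 7.19, 8.32 and 9.93 CPM against 3.58, 4.50, 2.66 and 3.74 CPM in WT (1.33 ± 0.19, adjusted p = 6.9e-04). The far more abundant gene *b2ml*, of similar name, overlapped, at 234, 256, 202 and 215 CPM against 219, 215, 204 and 221 CPM. The peptide transporter gene *tap1* was not called (0.20 ± 0.25, adjusted p = 0.568). Against *elavl3:Gal4* larvae at 5 dpf, 5 of 24 were higher with all libraries (4.60% of all genes were called in either direction), and 10 higher and 1 lower without the library that stood apart (11.7% and 11.0%). Between the 2 controls edgeR called 0 of the 17 tested at 3 dpf (4.79% of all genes) and 0 of the 22 tested at 5 dpf (0.0508%). At an unadjusted p under 0.05 there were 2 genes at 3 dpf and 1 at 5 dpf. Genes that passed the filter only with FynY531F larvae were not tested between the controls. With age alone, 12 of 19 rose and 1 fell in WT larvae (29.3% and 28.7% of all genes).

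Leukocyte markers were also higher against WT. The 7 marker genes found, of 8 listed, summed to 93.2 to 114 CPM in FynY531F larvae at 3 dpf, to 69.8 to 84.1 CPM in WT and to 79.7 to 94.3 CPM in *elavl3:Gal4* larvae. At 5 dpf the sums were 92.5 to 104 CPM in FynY531F, 72.7 to 86.6 CPM in WT and 61.6 to 78.2 CPM in *elavl3:Gal4* larvae, or 72.5 to 78.2 CPM without the library that stood apart. Against WT, 4 of the 6 tested were called higher at each age, among them the macrophage gene *mpeg1.1* (1.70 ± 0.31, adjusted p = 0.00278, at 5 dpf), while the pan-leukocyte gene *ptprc* was not (-0.06 ± 0.18, adjusted p = 0.842). Over all genes, 12.7% were called higher at 3 dpf and 14.5% at 5 dpf in these comparisons. Against *elavl3:Gal4* larvae 1 of the 6 was called higher at 3 dpf, where 8.88% of all genes were. At 5 dpf edgeR called 0 with all libraries, with 1 at an unadjusted p under 0.05, and 3 without the library that stood apart, where 11.7% were called higher. None of the 7 was at 0 in any group. Neuronal markers summed to 1220 to 1444 CPM in FynY531F larvae at 3 dpf, to 966 to 1044 CPM in WT and to 795 to 935 CPM in *elavl3:Gal4* larvae. Of the 4 neuronal genes 2 were called higher than in WT and 1 lower (12.7% and 14.8% of all genes). The axon growth gene *gap43* was at a mean of 408 against 131 CPM in WT, while the synaptic genes *snap25a* (297 against 333 CPM) and *sncb* (139 against 180 CPM) had lower means. Against *elavl3:Gal4* larvae 2 of the 4 were called higher and 0 lower (8.88% and 9.73% of all genes). All 4 differences there were above 0, with a median of 0.29. The *elavl3:Gal4* larvae themselves had 3 of the 4 called lower than WT (4.79% of all genes called in either direction), with a median of -0.35. At 5 dpf the neuronal sums overlapped, at 1063 to 1399 CPM in FynY531F and 1168 to 1346 CPM in WT larvae. The summed markers of dividing cells at 5 dpf were at 827 to 963 CPM in FynY531F and at 662 to 812 CPM in WT larvae, and 3 of the 5 genes were called higher. The fourth gene called, *top2a*, was lower, at 109 to 138 CPM against 134 to 151 CPM. The muscle markers summed to 5267 to 9106 CPM against 9880 to 11459 CPM in WT. The part of these cells in the differences of *psmb10* or of the other members was not tested.

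Among the activators, *psme2* showed the higher values in 5 dpf FynY531F larvae, at 10.2, 12.4, 8.18 and 9.24 CPM. In WT it was at 6.68, 7.95, 4.78 and 8.30 CPM, with 1 WT library above the lowest FynY531F library, and the difference just missed the threshold (0.54 ± 0.19, adjusted p = 0.0521). In *elavl3:Gal4* larvae it was at 5.32, 5.26, 10.6 and 5.62 CPM, the third from the library that stood apart (0.58 ± 0.28, adjusted p = 0.301). *psme3* spread from 6.21 to 39.6 CPM over the 4 pools of 3 dpf WT larvae and was not called in any comparison. *psme4b*, the other PA200 gene, fell with age in WT and in FynY531F larvae and did not share the difference of *psme4a* at 5 dpf, at 0.00 against WT.

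Pairs of duplicated genes fell together with age in WT and FynY531F larvae, apart from *psme4a*. The pairs *psma6a* and *psma6b*, *psmc1a* and *psmc1b*, *psmd4a* and *psmd4b*, and *psmd11a* and *psmd11b* were all called lower in both genotypes. By genotype at 5 dpf, 1 copy was called and the other was not in 3 of these pairs. Against WT, the ubiquitin receptor gene *psmd4b* was higher (0.39) and *psmd4a* was not called (0.01), the ATPase gene *psmc1b* was higher (0.23) and *psmc1a* was not called (-0.07), and *psmd11a* was higher (0.35) and *psmd11b* was not called (0.24). Neither *psma6a* (0.10) nor *psma6b* (0.00) was called. The differences between the copies were not tested, and reads from closely similar copies may be split between them in an uncertain way.

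Other genes of the ubiquitin-proteasome pathway were taken from a list of 30 partners, of which 26 were found and tested. In WT larvae 13 fell with age and 4 rose (28.7% and 29.3% of all genes), with a median of -0.16. The unfoldase gene *vcp*, which delivers ubiquitinated substrates, fell by 1.27 on the log2 scale, from 49.8, 55.7, 57.0 and 64.0 CPM to 27.9, 20, 23.4 and 22.5 CPM. The gene of the deubiquitinase Usp14, which sits on the regulator, fell by 0.93, and *pomp*, the maturation factor of the core, fell by 0.70, from 56.7 to 58 CPM to 33.5 to 36.3 CPM. The gene of the deubiquitinase Uchl5 rose (1.22), as did *rad23ab*, which encodes a shuttle factor (0.32). In FynY531F larvae 10 fell and 4 rose with age (25.3% and 27.0% of all genes), among them *vcp* (-1.0) and *ubb* (1.03), a polyubiquitin gene. In *elavl3:Gal4* larvae 5 fell and 2 rose (10.4% and 15.4% of all genes), and 11 and 6 without the library that stood apart (29.3% and 29.6%).

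Homologues of the transcription factors Nrf1 and Nrf2 were among the partners that differed by genotype. *nfe2l2b*, a homologue of Nrf2, was at 7.47, 6.11, 5.40 and 5.62 CPM in FynY531F larvae at 3 dpf, at 20.2, 20.2, 19.7 and 18.5 CPM in WT and at 11, 14.8, 15.6 and 13.7 CPM in *elavl3:Gal4* larvae. The 3 genotypes did not overlap, and the log2 differences were -1.67 from WT and -1.15 from *elavl3:Gal4*, while *elavl3:Gal4* was itself 0.51 below WT. At 5 dpf it was at 11.7, 4.74, 5.22 and 3.96 CPM in FynY531F and at 11.1 to 13.7 CPM in WT larvae (-1.04). Replicate 1 of FynY531F larvae was inside the WT range. *nfe2l1b*, a homologue of Nrf1, which drives proteasome genes in mammals when proteasome activity is low, was at 6.49, 7.52, 4.74 and 6.17 CPM in FynY531F larvae at 3 dpf. It was at 1.67 to 4.57 CPM in WT and at 3.05 to 4.45 CPM in *elavl3:Gal4* larvae, all below those 4 libraries (log2 differences 0.81 and 0.80). At 5 dpf its levels overlapped, at 3.48 to 6.18 CPM in FynY531F, 2.75 to 4.85 CPM in WT and 2.8 to 4.71 CPM in *elavl3:Gal4* larvae, and it was not called against WT (0.25 ± 0.26, adjusted p = 0.506). The genes *nfe2l1a* and *nfe2l2a* did not share the higher level of *nfe2l1b* at 3 dpf. Every FynY531F library was below all control libraries of that age for *nfe2l2a*, and for *nfe2l1a* the 3 genotypes overlapped. Against WT, 9 of the 26 partners were higher and 3 lower at 3 dpf (12.7% and 14.8% of all genes). At 5 dpf 8 were higher and 3 lower (14.5% and 14.3%), with *nfe2l1a* (1.3), *ubb* (0.61) and *ubqln4* (0.44) highest and *uchl5* (-2.19) lowest. *ubb* was at 123 to 166 CPM in FynY531F and at 66.1 to 99.7 CPM in WT larvae. In *elavl3:Gal4* larvae it was also above WT, at 113, 106, 203 and 124 CPM. *uchl5* varied between pools, at 0.255, 1.65, 1.31 and 5.9 CPM in FynY531F and at 6.08 to 15.1 CPM in WT larvae. The partners called against *elavl3:Gal4* larvae were 2 higher and 3 lower at 3 dpf (8.88% and 9.73% of all genes). At 5 dpf edgeR called 0 with all libraries (4.60%), with 5 at an unadjusted p under 0.05, and 3 higher and 2 lower without the one that stood apart (11.7% and 11.0%). For the interaction with WT, *ubb* (1.17), *nfe2l2a* (0.52) and *pomp* (0.33) were called higher (6.23% of all genes) and *ubc* lower (-0.35), where 1113 of 20340 genes were called lower.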

How the data were processed

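Poly(A) RNA of whole larvae was sequenced as paired reads of 150 bases. The authors deposited raw gene counts for GRCz11, which were used here unchanged, together with the gene length in bases. Per the submitters' processing notes HISAT2 2.0.5, StringTie 1.3.3b and featureCounts 1.5.0-p3 were used, without their roles. The 9 full tables agreed in all 1205864 entries compared. Their fold changes and p-values, 144 normalised per-sample columns and 27 subset tables were not used. A gene not listed for a library was taken as 0.

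Each pair of groups was fitted by edgeR 4.0.16 (filterByExpr, TMM, quasi-likelihood, 2-sided) in R 4.3.3, and interactions on 16 libraries. The code was tested on simulated data. Alternatives were DESeq2 1.42.0, other scalings and filters, 1 fit of all groups, a replicate block and leaving out each library. The fit of all groups without replicate 3 of 5 dpf *elavl3:Gal4* larvae was added after seeing the data. The pseudocount for the spread of log2 CPM was 0.5. The members and lists were chosen with earlier results of these data known. Values per library are given for up to 3 members per direction and comparison with the largest change among called members whose groups do not overlap, for tested immunoproteasome genes, and for *psmb5*, *psmb6*, *psmb7* and *psme2*, and others were named after their values were seen. For the interferon and partner lists, up to 3 called genes per direction were named by size, and *b2m*, *b2ml*, *tap1*, *pomp* and *nfe2l1b* beyond that. *nfe2l1a* and *nfe2l2a* were also compared by level at 3 dpf, after their values were seen. Gene sequences were not used here. No source used here states whether replicates were separate clutches, and p-values measure the spread between these pools.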

Additional observations from a re-analysis of the deposited data

Results flagged for a closer look

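Among 18 named genes, 108 groups of 4 libraries were checked for a library whose gap to the nearest other exceeded Dixon's critical value, which chance exceeds in about 1 group in 20. There were 11 such libraries, and 9 of them were replicate 3 of 5 dpf *elavl3:Gal4* larvae. In it *psmb10* was at 13.2 CPM, *psmb6* at 210, *psmb7* at 215, *psmc3* at 234, *psmc4* at 146, *psmd9* at 33.8, *psme2* at 10.6, *psmg1* at 53.5 and *psmg3* at 37.6 CPM, each above the other 3 replicates. The other outlying values were *psmc4* at 126 CPM in replicate 4 of 3 dpf *elavl3:Gal4; UAS:fynY531F* larvae, where the rest were at 138 to 139 CPM, and *psmc6* at 42.3 CPM in replicate 1 of 5 dpf *elavl3:Gal4* larvae, where the rest were at 15.1 to 19.6 CPM.

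The change with age differed between *elavl3:Gal4; UAS:fynY531F* and WT larvae by edgeR's interaction test for *psmb5* (log2 1.13, adjusted p = 0.0253), *psmc4* (0.28, adjusted p = 0.0447), *psmc6* (2.19, adjusted p = 0.0217), *psmd13* (0.27, adjusted p = 0.0447) and *psmd8* (0.27, adjusted p = 0.0479). *psmd13* was named after its values were seen. These were 5 of 47 members, a share close to that of all genes called in either direction (2380 of 20340).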

How the results depend on the processing

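The counts of members called are given per alternative, without the share over all genes in the same fit, so they cannot be set against it. With all 6 groups in one fit they were 28 for WT with age, 17 for *elavl3:Gal4* with age, 0 for *elavl3:Gal4; UAS:fynY531F* against *elavl3:Gal4* and 0 against WT at 3 dpf, 5 and 6 at 5 dpf, and 0 for the interaction with WT. Added after seeing the data, that fit without replicate 3 of 5 dpf *elavl3:Gal4* larvae gave 42 for *elavl3:Gal4* with age, 28 for *elavl3:Gal4; UAS:fynY531F* against *elavl3:Gal4* at 5 dpf and 6 for the interaction with *elavl3:Gal4*. Library totals alone gave 17 for *elavl3:Gal4* with age and 2 against *elavl3:Gal4* at 5 dpf, where DESeq2 gave 4, and no filter and a minimum of 10 counts in every library 1 each. No filter gave 2 for the interaction with WT. The replicate block gave 3 and 10 at 3 dpf against *elavl3:Gal4* and WT, and 3 for the interaction with WT. Same-numbered libraries correlated at -0.226 to 0.235, and a library correlated best with its own number in 20 of 72 cases. Such values cannot show whether same-numbered pools shared a clutch.

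Leaving out 1 library gave 40 to 44 for WT, 6 to 41 for *elavl3:Gal4* and 35 to 38 for *elavl3:Gal4; UAS:fynY531F* with age. At 3 dpf it gave 6 to 9 against *elavl3:Gal4*, 6 to 14 against WT and 0 to 1 between controls, and at 5 dpf 0 to 18, 18 to 29 and 0 to 0. The interactions gave 0 to 6 with *elavl3:Gal4* and 2 to 7 with WT. Of the fold changes of named genes under these alternatives, 582 kept direction and call, 8 gained and 74 lost the call, and 0 reversed. Apart from the library that stood apart, the cause was not tested.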
